A study of Mus musculus with 6 samples.

Results

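The 39 genes described here encode the fatty acid oxidation machinery of the liver and genes switched on by the nuclear receptor PPARA. They were taken by symbol from a list covering mitochondrial and peroxisomal oxidation, ketogenesis and PPARA targets, and each symbol was mapped to its Ensembl ID through the GRCm38 annotation. All 39 were found among the 54682 rows of the count table, and all 39 were among the 14145 genes with enough counts to be tested. The rule works on gene symbols and uses no measured value, but the members were chosen with earlier results of these data known.

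The samples were whole livers of 6 mice, 3 wild-type (WT) and 3 homozygous for a germline Cd44 knockout (Cd44-/-, strain B6.Cg-Cd44tm1Hbg/J). Both genotypes were ethanol fed: they drank a Lieber-DeCarli diet holding 5% (vol) ethanol over 10 days, a gavage of 5 g/kg ethanol followed on day 11, and the livers were collected 9 hours after it. No mouse without ethanol was analysed here, so the comparison is between genotypes within ethanol-exposed liver, and the labels used here give neither age nor sex. The knockout is not limited to one cell type, and CD44, the hyaluronan receptor, is carried mainly by leukocytes in this organ.

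Fatty acids enter hepatocytes, are joined to coenzyme A, cross into mitochondria as carnitine esters and are shortened by repeated rounds of β-oxidation. The acetyl-CoA formed is burned or turned into ketone bodies, while very long chains, dicarboxylic acids and branched chains are handled first by peroxisomes. PPARA is the fasting-activated receptor that binds fatty acids, pairs with RXR on paired AGGTCA elements in DNA, and raises transcription of most of these genes, and ethanol metabolism is known to interfere with both the receptor and the oxidation it controls.

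Levels below are CPM, counts scaled by TMM to a common library size, in the order of mice 1, 2 and 3 of each genotype. Fold changes are log2 values, knockout relative to wild-type, with their standard error, from edgeR's quasi-likelihood test with Benjamini-Hochberg adjustment over all tested genes. A gene counted as called at an adjusted p under 0.05.

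None of the 39 genes was called between the genotypes. Their edgeR adjusted p values ran from 0.217 to 0.994, against a background in which only 2 of the 14145 tested genes (0.0141%) were called, namely Cd44 itself and Disp2, the latter named after its values were seen. At an unadjusted p under 0.05, 4 members stood out, Ucp2, Ehhadh, Pdk4 and Acot3, which is 10.3% of the members beside 12.8% of all tested genes. All 4 were lower in the knockout, a direction and limit that 7.59% of all tested genes shared. The genotypes did not overlap for 2 members, Ucp2 and Ehhadh, both lower in the knockout, where 9.42% of all tested genes had this pattern. No member lay wholly higher in the knockout, against 8.81% of all tested genes. The share lower at an unadjusted edgeR p under 0.05 (10.3%) was above that of all tested genes, and the other shares were below. Of the 5246 tested genes at or above the 5th percentile of member level, 595 (11.3%) were at this p limit, 250 lower and 345 higher. Of the same 5246 genes, 383 (7.30%) lay wholly lower in the knockout and 548 wholly higher. DESeq2 called 1 member, Ucp2, and 330 of 13865 genes overall (2.38%), while limma-voom called no gene.

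By sign alone, 25 of the 39 genes had a log2 fold change below 0 and 14 above it. That is 35.9% higher, beside 48.9% of all tested genes and 55.6% of tested genes at or above the 5th percentile of member level. The median member difference was -0.09 on the log2 scale, against -0.01 over all tested genes and 0.03 over those at or above that level. The differences ranged from -1.29 for Acot1 to 0.43 for Acot2, a pair of neighbouring thioesterase genes. A log2 difference beyond 0.5 in either direction was seen for 6 members (15.4%), beside 18.4% of all tested genes and 6.54% of tested genes at or above the 5th percentile of member level. The 95% intervals lay wholly within a log2 change of 1 either way for 30 members, but within 0.5 for only 10. For most members, therefore, a doubling in either direction lay outside the interval, whereas for the members outside those 10 a log2 change of 0.5 in at least 1 direction lay inside it.

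**Figure D1:**
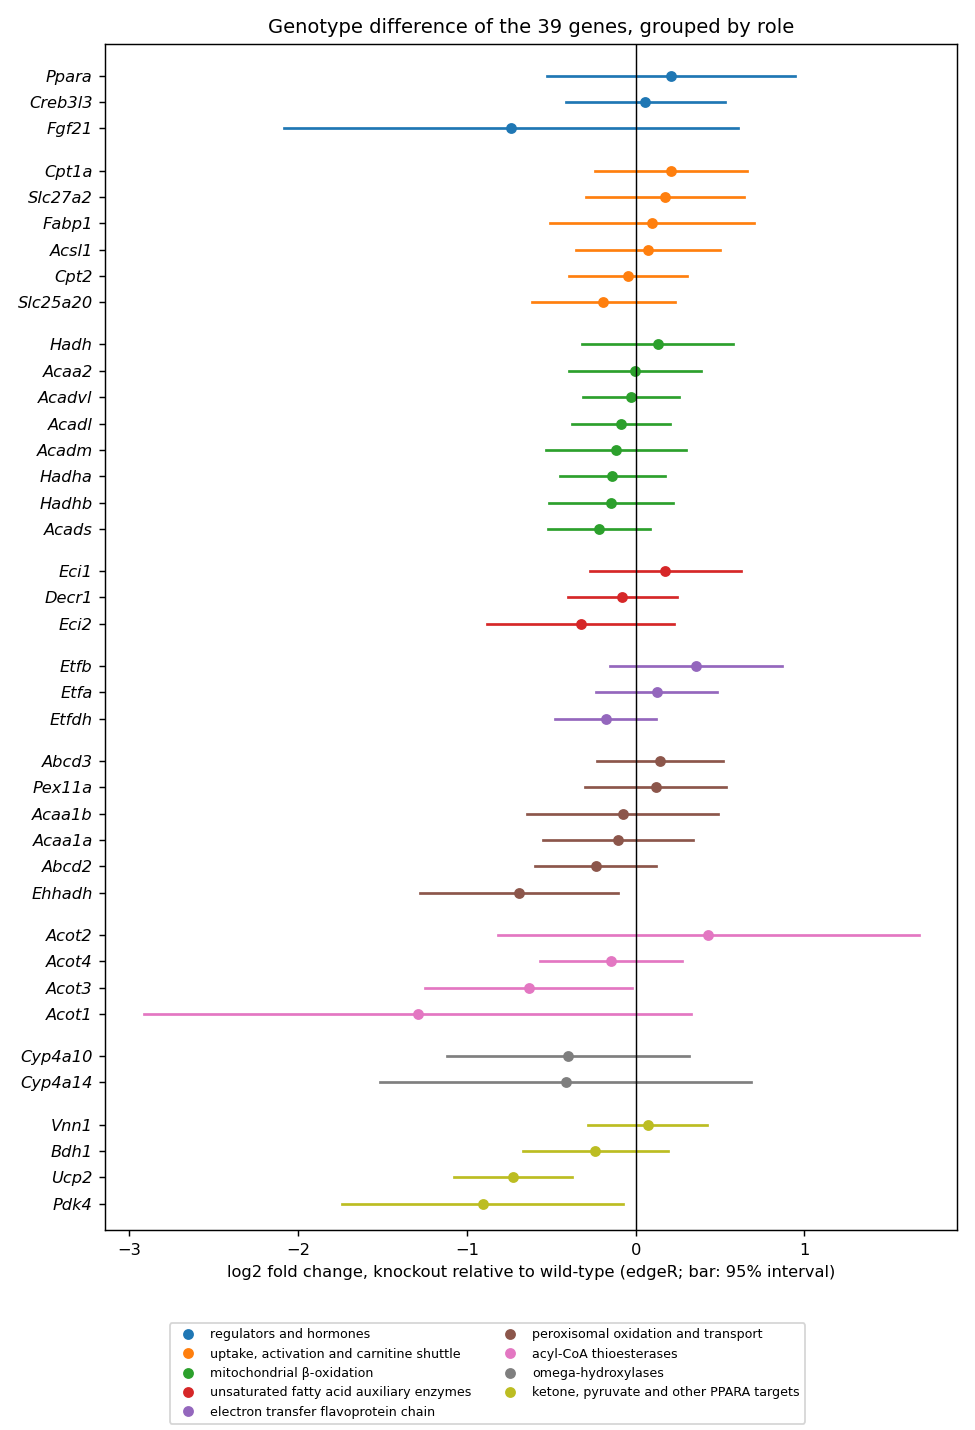
Log2 fold change (knockout relative to wild-type, horizontal axis) of the 39 genes, coloured and grouped by role, with 95% intervals from the edgeR fit as bars (n = 3 mice per genotype). The intervals of Ucp2, Ehhadh, Pdk4 and Acot3 lie below 0, and those of Acot1, Acot2 and Fgf21 are the widest.

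The Cd44 transcript followed the labels, at 32.1, 11.4 and 28.9 CPM in wild-type livers and 0.07, 0 and 0 CPM in the knockouts. Libraries held 15429784 to 19293777 counts in annotated genes, and the least counted member, Acot1, still had 125 counts in its lowest library, so zeros do not enter any member's value. Hepatocyte markers (9 of 10 matched and tested) summed to 95180 to 114583 CPM in the wild-type mice, against 102921 to 130360 CPM in the knockout mice. Of the 9, 8 were higher in the knockout and 1 lower, with 0 at an unadjusted edgeR p under 0.05. All 10 macrophage and Kupffer cell markers were lower in the knockout, 9 of them at an unadjusted edgeR p under 0.05, with sums of 390 to 1034 CPM in wild-type livers, compared with 319 to 356 CPM in knockout livers and none at 0. The 5 cholangiocyte markers were also all lower, with sums of 51.6 to 65.1 CPM in wild-type livers that did not overlap the 27.5 to 36.3 CPM of the knockouts. The 6 stellate and fibroblast markers were all lower too (median log2 difference -0.57), with overlapping sums of 329.6 to 546 CPM for the wild-type mice, against 299.7 to 396 CPM for the knockouts. Of the 5 endothelial markers 3 were lower and 2 higher (median log2 difference -0.13). Of the 5 tested lymphocyte markers 2 were lower and 3 higher (median 0.22), and the 2 tested neutrophil markers were lower. Lymphocyte and neutrophil sums were at most 13.9 and 4.03 CPM. The part of these cell types in the members' values was not tested. Adipocyte markers summed to 84.6 CPM in wild-type mouse 2, to 18.9 CPM in knockout mouse 2 and to at most 5.31 CPM in the others, and Adipoq was at 0 in wild-type mice 1 and 3 and knockout mouse 3. Wild-type mice 2 and 3 stood apart in zonal genes, in opposite directions for the pericentral ones. Mouse 3 had a median log2 deviation of 0.41 for periportal and -0.78 for pericentral hepatocyte markers. Wild-type mouse 2 had -0.02 and 0.58. In whole tissue, fewer cells of a type and less RNA per cell cannot be told apart.

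Promoters are printed for 3 members: Ucp2 and Ehhadh, whose groups did not overlap, and Fabp1, the most abundant member per exon length and the only one holding a paired element. The RefSeq promoter table on GRCm38.p6 (250 bases before to 50 after each start) matched 33 of the 39 genes. Each line runs 5′ to 3′ on the gene's own strand, and capitals mark matches to the single element AGGTCA or to the paired form AGGNCANAGGNCA, read on either strand. The Fabp1 promoter is at chr6:71199629-71199928 (plus strand), the Ehhadh promoter at chr16:21787785-21788084 (minus strand) and the Ucp2 promoter at chr7:100493108-100493407 (plus strand).
Fabp1: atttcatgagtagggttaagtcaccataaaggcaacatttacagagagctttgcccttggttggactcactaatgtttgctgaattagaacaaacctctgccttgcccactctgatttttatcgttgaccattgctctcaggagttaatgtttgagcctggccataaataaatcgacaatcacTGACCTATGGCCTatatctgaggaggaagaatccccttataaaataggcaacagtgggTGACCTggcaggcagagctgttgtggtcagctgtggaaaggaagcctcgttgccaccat
Ehhadh: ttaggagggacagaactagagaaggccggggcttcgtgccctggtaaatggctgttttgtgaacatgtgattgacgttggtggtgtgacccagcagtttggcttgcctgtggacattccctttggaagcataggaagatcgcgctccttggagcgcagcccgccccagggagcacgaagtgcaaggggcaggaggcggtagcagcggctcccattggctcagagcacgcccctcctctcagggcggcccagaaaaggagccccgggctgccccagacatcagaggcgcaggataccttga
Ucp2: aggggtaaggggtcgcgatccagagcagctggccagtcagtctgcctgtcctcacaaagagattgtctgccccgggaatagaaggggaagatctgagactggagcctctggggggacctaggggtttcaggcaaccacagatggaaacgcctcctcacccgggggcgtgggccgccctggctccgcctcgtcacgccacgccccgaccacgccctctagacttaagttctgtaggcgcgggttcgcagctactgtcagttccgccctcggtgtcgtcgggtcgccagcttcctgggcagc

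In Fabp1 the paired form lies 67 to 55 bases before the start and includes a perfect single element at 67 to 62 bases. A separate single element lies 9 to 4 bases before the start. The single element was present in 8 of the 33 members (24.2%), namely Acadm, Acadvl, Acot3, Acot4, Cpt1a, Creb3l3, Fabp1 and Slc27a2. Some genes have more than 1 promoter: counted by promoter, it was in 9 of the 38 of the members and in 16.3% of all 32851 of the same length. An exact repeat of the element spaced by 1 base was in none of the members and in 13 promoters of the table (0.0396%). The looser paired form, which was chosen after the sequences were seen, was in Fabp1 alone among the members and in 125 promoters overall (0.381%). No match was found in the Ehhadh or Ucp2 windows, which says only that these letters are not within them. Of the 8 members with a single element, Acot3 alone was among the 4 genes at an unadjusted edgeR p under 0.05.

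Neither the receptor nor its linked regulators passed the test. Ppara (ENSMUSG00000022383; GRCm38, chromosome 15, 85734983 to 85802819, plus strand) stood at 87.8, 129 and 79.3 CPM in wild-type livers and 170, 83.7 and 87.9 CPM in the knockouts, a log2 fold change of 0.21 ± 0.31 (edgeR adjusted p = 0.847). Knockout mouse 1 was the highest of all 6, while the other knockouts lay inside the wild-type range. Without knockout mouse 1 the Ppara difference was -0.19, so its sign rests on that library. Creb3l3, the hepatic partner factor of PPARA in fasting, had 549, 335 and 412 CPM in the wild-type mice, against 480, 388 and 482 CPM in the knockout mice, all 3 knockouts inside the wild-type range (0.06 ± 0.20).

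Fgf21 encodes the liver hormone released in fasting and after alcohol intake. Its levels were 64.7, 49.0 and 82.5 CPM in wild-type livers, compared with 16.3, 77.0 and 24.0 CPM in knockout livers (-0.74 ± 0.56, edgeR adjusted p = 0.657). Knockout mice 1 and 3 lay below every wild-type mouse, but knockout mouse 2 lay near the wild-type maximum. The 95% interval accordingly ran from -2.08 to 0.61, and the fold change was -1.70 without knockout mouse 2 and -0.36 without knockout mouse 1.

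**Figure D2:**
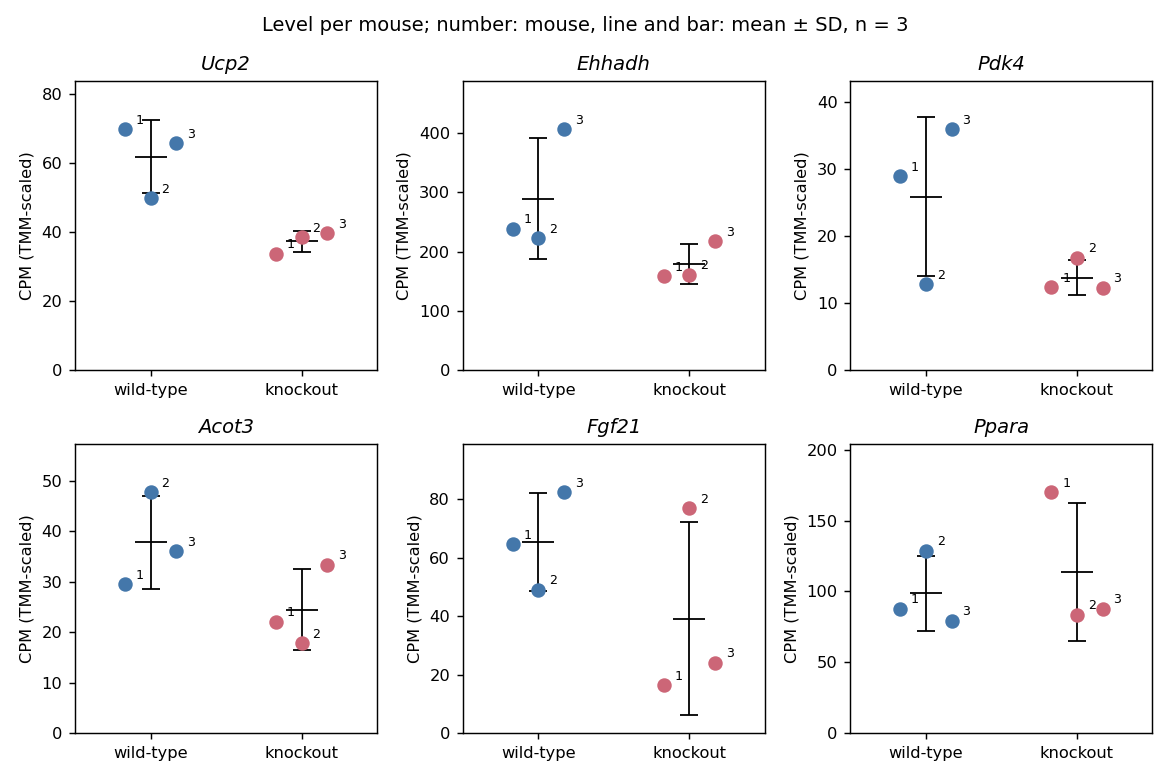
Level of 6 genes in each mouse (vertical axis, TMM-scaled CPM from 0; points, numbered by mouse) for the wild-type and knockout groups, with the mean as a line and the SD as a bar (n = 3). Ucp2 and Ehhadh do not overlap between genotypes, whereas 1 knockout mouse sits high for Fgf21 (mouse 2) and for Ppara (mouse 1).

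Among the 6 genes of uptake, activation and the carnitine shuttle none had an unadjusted edgeR p under 0.05, and 4 had a fold change above 0. Cpt1a, the rate-limiting carnitine palmitoyltransferase of the outer mitochondrial membrane, had 335, 367 and 489 CPM in wild-type livers and 486, 378 and 512 CPM in the knockouts (0.21 ± 0.19, edgeR adjusted p = 0.724). Its groups overlapped, with wild-type mouse 3 inside the knockout range. Slc27a2, a very long chain acyl-CoA synthetase and transporter, had a difference of 0.17 ± 0.20, and Acsl1, the main long-chain acyl-CoA synthetase, one of 0.07 ± 0.19.

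Fabp1, the cytosolic fatty acid carrier, had the largest coefficient of variation of this group among wild-type livers, 33.9%. It had 1165, 876 and 574 CPM in the wild-type mice, against 842, 864 and 1094 CPM in the knockout mice (0.10 ± 0.26), with wild-type mice 1 and 3 at the extremes and all 3 knockouts between them. Slc25a20, the carnitine-acylcarnitine translocase, differed by -0.19 ± 0.18 and Cpt2, the inner membrane transferase that frees the acyl group again, by -0.04 ± 0.15. Per kilobase of exon, Fabp1 was the highest of the 39 genes, at 1576 ± 534 CPM in wild-type livers, compared with 1688 ± 253 CPM in knockout livers (SD, n = 3). Acaa2, the thiolase of the mitochondrial spiral, followed at 420 ± 20.6 and 419 ± 74.5 CPM per kilobase.

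Of the 8 genes of mitochondrial β-oxidation none had an unadjusted edgeR p under 0.05, and 7 had a fold change slightly below 0. Their 95% intervals all lay between -0.53 and 0.58 on the log2 scale. The median coefficient of variation was 7.31% among wild-type and 12.3% among knockout livers, against 18.3% and 12.8% over all tested genes. Among wild-type livers it ranged from 1.57% for Acadl to 22.6% for Hadh. Acadl, the long-chain acyl-CoA dehydrogenase, stood at 268, 274 and 277 CPM in wild-type livers and 242, 245 and 285 CPM in the knockouts (-0.09 ± 0.13). Knockout mice 1 and 2 lay below all wild-type mice and knockout mouse 3 above them.

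Acads, the short-chain dehydrogenase, had the largest difference of the 8 (-0.22 ± 0.13, edgeR adjusted p = 0.545). It stood at 189, 214 and 186 CPM in the wild-type mice, against 154, 167 and 187 CPM in the knockout mice. Hadha, the α-subunit of the trifunctional protein, had 382, 415 and 390 CPM in wild-type livers, compared with 328, 361 and 390 CPM in knockout livers (-0.14 ± 0.13). In both genes knockout mouse 3 alone reached the wild-type range. Hadhb, the β-subunit, is read from the neighbouring locus in the opposite direction and differed by -0.15 ± 0.16, and 18.1% of its 50-base windows also occur in the gene model Gm13910. Acadm, the medium-chain dehydrogenase, differed by -0.12 ± 0.18, Acadvl, the very long chain enzyme, by -0.03 ± 0.12, and Acaa2 by -0.01 ± 0.17. Hadh, the short-chain hydroxyacyl-CoA dehydrogenase, was the exception in sign at 0.13 ± 0.19.

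Auxiliary enzymes for unsaturated chains and the electron acceptors showed no called difference either. Decr1, the dienoyl-CoA reductase, differed by -0.08 ± 0.14 and Eci1, a mitochondrial enoyl-CoA isomerase, by 0.18 ± 0.19. Eci2, a second isomerase also found in peroxisomes, had 107, 93.4 and 177 CPM in wild-type livers and 103, 88.2 and 109 CPM in the knockouts (-0.33 ± 0.24). Wild-type mouse 3 alone stood high, and the other 5 mice shared one range. Etfa and Etfdh, a flavoprotein subunit and the dehydrogenase passing its electrons to ubiquinone, differed by 0.12 ± 0.16 and -0.18 ± 0.13. Etfb, the other flavoprotein subunit, had 22.8, 21.6 and 28.5 CPM in the wild-type mice, against 24.0, 27.5 and 42.0 CPM in the knockout mice (0.36 ± 0.22, edgeR adjusted p = 0.561). Only knockout mouse 3 lay above the wild-type range, and 43.8% of the 50-base windows of Etfb are shared with the overlapping gene model Gm45233, so its level is uncertain.

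Ehhadh, the bifunctional hydratase and dehydrogenase of the classical peroxisomal pathway and a standard PPARA target, was the peroxisomal gene that differed most. Ehhadh (ENSMUSG00000022853; GRCm38, chromosome 16, 21761287 to 21787807, minus strand) had 239, 223 and 406 CPM in wild-type livers, compared with 159, 161 and 217 CPM in knockout livers. Every knockout lay below every wild-type mouse, though knockout mouse 3 and wild-type mouse 2 nearly met, and wild-type mouse 3 stood far above the rest. The log2 fold change was -0.69 ± 0.25, with a 95% interval of -1.28 to -0.11. The edgeR unadjusted p was 0.0263 and the adjusted p 0.316. Without wild-type mouse 3 the difference was -0.37, with an unadjusted edgeR p of 0.0611. That p was also above 0.05 without knockout mouse 1 (0.0933) and without knockout mouse 2 (0.0835). Ehhadh shares no 50-base window with another gene.

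The other 5 genes of peroxisomal oxidation and transport, a group that leaves out the thioesterases, had unadjusted edgeR p values above 0.05. Acaa1b, a peroxisomal thiolase, had 577, 599 and 418 CPM in wild-type livers and 350, 516 and 644 CPM in the knockouts (-0.08 ± 0.25), with knockout mice 1 and 3 at the 2 extremes of all 6. Acaa1a, its close copy, differed by -0.10 ± 0.19, and their sum came to 735 ± 53.7 CPM in the wild-type mice, against 693 ± 159 CPM in the knockout mice (SD, n = 3), and the summed groups overlapped as well. Abcd2, an importer of very long chain acyl-CoA, had 71.6, 73.7 and 101 CPM in wild-type livers, compared with 67.0, 67.4 and 75.0 CPM in knockout livers (-0.24 ± 0.16), and again wild-type mouse 3 was the high one. Abcd3, the abundant importer of branched and long chains, differed by 0.14 ± 0.16, and Pex11a, which drives peroxisome division, by 0.12 ± 0.18.

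The acyl-CoA thioesterases split acyl-CoA into free acid and coenzyme A, and these 4 genes lie side by side on chromosome 12. Acot1 (ENSMUSG00000072949; GRCm38, 84009490 to 84018371, plus strand), the cytosolic form, had 15.6, 8.16 and 57.3 CPM in wild-type livers and 8.50, 11.4 and 13.2 CPM in the knockouts (-1.29 ± 0.68, edgeR adjusted p = 0.497). The large mean difference came from wild-type mouse 3, since without it the fold change was -0.11. Acot2, the mitochondrial form, had 46.2, 21.3 and 97.7 CPM in the wild-type mice, against 50.1, 89.5 and 83.4 CPM in the knockout mice (0.43 ± 0.52, edgeR adjusted p = 0.805). Wild-type mice 2 and 3 held the lowest and the highest value of all 6, and the difference was 0.06 without mouse 2 and 1.13 without mouse 3.

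Acot3, a peroxisomal form, had 29.5, 47.8 and 36.1 CPM in wild-type livers, compared with 22.1, 17.8 and 33.4 CPM in knockout livers (-0.63 ± 0.26, edgeR unadjusted p = 0.0449 and adjusted p = 0.377). Knockout mice 1 and 2 lay below all wild-type mice, and knockout mouse 3 lay between wild-type mice 1 and 3. Without wild-type mouse 2 the Acot3 difference was -0.42, and without knockout mouse 3 it was -0.92. When 1 mouse was left out, its unadjusted edgeR p stayed under 0.05 only without wild-type mouse 1 or knockout mouse 3. Acot4, the peroxisomal succinyl-CoA thioesterase, had 129, 150 and 96.6 CPM in wild-type livers and 102, 106 and 131 CPM in the knockouts (-0.15 ± 0.18), and the ranges overlapped.

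Acot1 and Acot2 are close copies: 24.5% of the 50-base windows of Acot2 occur in Acot1, and 13.6% of those of Acot1 in Acot2, so reads may be divided between them. Their sum was 82.1 ± 65.1 CPM in the wild-type mice, against 85.4 ± 23.3 CPM in the knockout mice (SD, n = 3). The 4 genes together stood at 221, 227 and 288 CPM in wild-type livers, compared with 183, 224 and 261 CPM in knockout livers, a log2 ratio of means of -0.14 with overlapping groups. Despite that, the ratio of Acot1 to Acot2 was 0.34, 0.38 and 0.59 in wild-type and 0.17, 0.13 and 0.16 in knockout livers, with no overlap. This ratio was picked after the values were seen and was not tested.

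**Figure D3:**
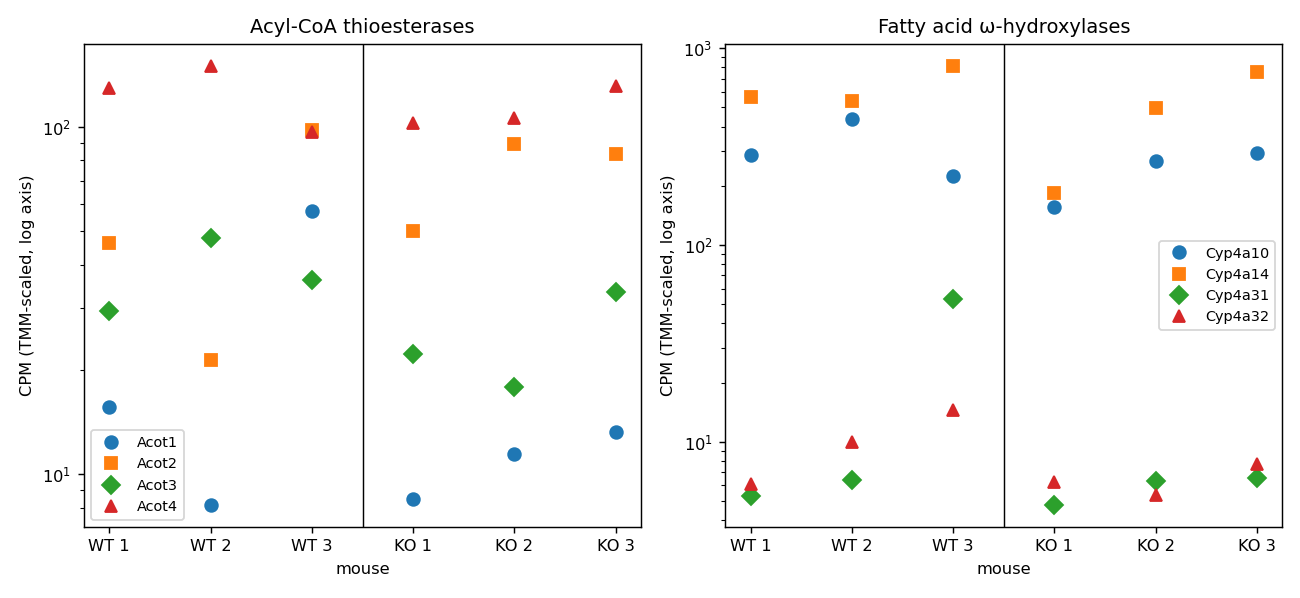
Level per mouse (TMM-scaled CPM, log axis) of the acyl-CoA thioesterases Acot1 to Acot4 and of the Cyp4a fatty acid hydroxylases, wild-type mice left and knockout mice right of the line in each panel. Acot1 and Cyp4a31 peak in wild-type mouse 3, and Cyp4a14 and Cyp4a10 are lowest in knockout mouse 1.

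The Cyp4a enzymes start ω-oxidation by hydroxylating the far end of the chain and are among the strongest PPARA-induced genes in rodent liver. Cyp4a14 (ENSMUSG00000028715; GRCm38, chromosome 4, 115486200 to 115496142, minus strand) had 565, 539 and 813 CPM in wild-type livers and 184, 496 and 758 CPM in the knockouts (-0.41 ± 0.47, edgeR adjusted p = 0.782). Cyp4a10, its neighbour, had 286, 436 and 224 CPM in the wild-type mice, against 156, 268 and 294 CPM in the knockout mice (-0.40 ± 0.31, edgeR adjusted p = 0.657). Knockout mouse 1 was the lowest of all 6 for both genes. For Cyp4a14 knockout mouse 2 also lay below every wild-type mouse and knockout mouse 3 lay inside their range, while for Cyp4a10 knockout mice 2 and 3 both lay inside it. Without knockout mouse 1 the Cyp4a14 difference was -0.01.

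Cyp4a10 shares 24.5% of its 50-base windows with Cyp4a32 and 15% with Cyp4a31, whereas Cyp4a14 shares 0.235% with any gene. The summed level of Cyp4a10, Cyp4a31 and Cyp4a32 was 347 ± 91.2 CPM in wild-type livers, compared with 252 ± 74.4 CPM in knockout livers (SD, n = 3), a log2 ratio of -0.47. Cyp4a31, named after its values were seen, had 5.33, 6.40 and 53.3 CPM in wild-type livers and 4.78, 6.31 and 6.58 CPM in the knockouts. Wild-type mouse 3 was thus alone in its high Cyp4a31, as it was for Acot1.

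Ucp2, an inner mitochondrial membrane carrier induced by fatty acids and also expressed by macrophages, had the smallest p of the 39 genes. Ucp2 (ENSMUSG00000033685; GRCm38, chromosome 7, 100493337 to 100502020, plus strand) had 69.7, 49.7 and 65.7 CPM in the wild-type mice, against 33.7, 38.4 and 39.6 CPM in the knockout mice. All knockouts lay below all wild-type mice, and wild-type mouse 2 was the nearest to them. The means were 61.7 ± 10.5 and 37.2 ± 3.11 CPM (SD, n = 3), a log2 fold change of -0.73 ± 0.15 with a 95% interval of -1.08 to -0.38. The edgeR unadjusted p was 0.00137 and the adjusted p was 0.217, while DESeq2 gave an adjusted p of 0.0122. Without wild-type mouse 2 the edgeR adjusted p was 0.0429 and the fold change -0.85, in a fit that called 151 genes.

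The macrophage markers moved with Ucp2. Their sum was 1034, 390 and 888 CPM in wild-type livers, compared with 319, 356 and 322 CPM in knockout livers, so wild-type mouse 2 was nearest the knockouts in both. Per 100 CPM of these markers Ucp2 stood at 6.74, 12.7 and 7.40 CPM in wild-type livers and 10.6, 10.8 and 12.3 CPM in the knockouts, where the groups overlapped. The part of these markers in the Ucp2 difference was not tested.

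**Figure D4:**
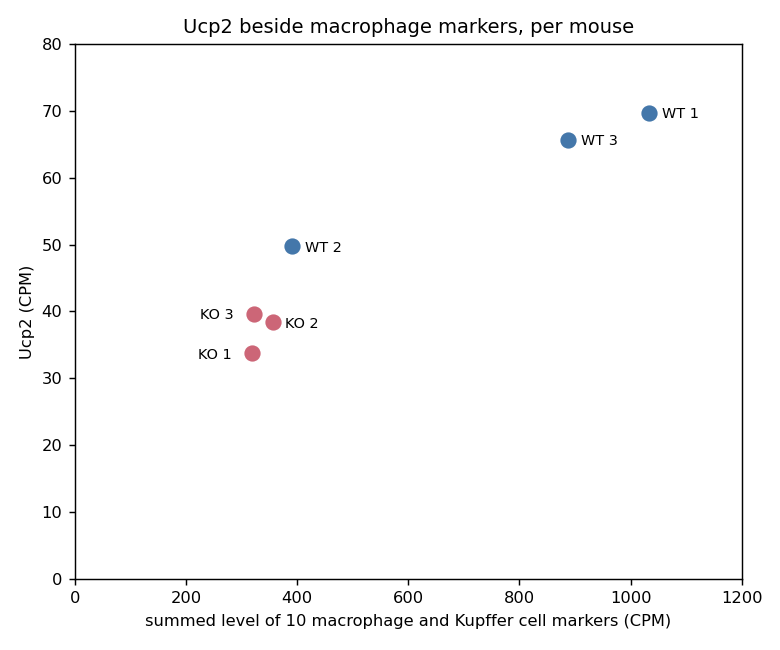
Ucp2 level (vertical axis, CPM) against the summed level of 10 macrophage and Kupffer cell markers (horizontal axis, CPM), 1 point per mouse, blue for wild-type (WT) and red for knockout (KO). Wild-type mice 1 and 3 are high on both axes, and wild-type mouse 2 lies beside the knockouts on the horizontal axis at 390 CPM.

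Pdk4 encodes the kinase that shuts pyruvate dehydrogenase and so spares glucose when fat is burned. Pdk4 (ENSMUSG00000019577; GRCm38, chromosome 6, 5483351 to 5496309, minus strand) had 28.9, 12.8 and 35.9 CPM in the wild-type mice, against 12.3, 16.8 and 12.3 CPM in the knockout mice. Wild-type mice 1 and 3 were high, and wild-type mouse 2 lay within the knockout range. The log2 fold change was -0.91 ± 0.36 (edgeR unadjusted p = 0.0369, adjusted p = 0.358). Without wild-type mouse 2, the liver with the highest adipocyte marker sum, it was -1.22 with an edgeR adjusted p of 0.0429, and without wild-type mouse 3 it was -0.60 with an unadjusted p of 0.117. The part of those markers in the Pdk4 value was not tested.

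Neither Bdh1 nor Vnn1 passed the test. Bdh1, which converts acetoacetate to the ketone body β-hydroxybutyrate, had 250, 329 and 209 CPM in wild-type livers, compared with 195, 232 and 241 CPM in knockout livers (-0.24 ± 0.19, edgeR adjusted p = 0.663). Vnn1, a pantetheinase that recycles pantothenate, had 39.5, 51.8 and 46.1 CPM in wild-type livers and 52.0, 40.1 and 52.1 CPM in the knockouts (0.07 ± 0.15). Both genes overlapped between genotypes.

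Per kilobase of exon, Acot3, Ucp2, Pdk4 and Acot1 ranked 36, 37, 38 and 39 of 39, at 11.0 ± 2.70, 8.83 ± 1.51, 7.37 ± 3.38 and 6.89 ± 6.76 CPM per kilobase in wild-type livers (SD, n = 3). Of the 4 genes at an unadjusted edgeR p under 0.05, Ehhadh alone came from the upper part of that order, at rank 12. The genes with the smallest p thus came mostly from the members of low level.

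Across the 39 genes the knockout mice differed from each other in a shared way, and the wild-type mice less so. The median log2 deviation from the mean of all 6 mice was 0.00, 0.05 and 0.07 in wild-type and -0.13, -0.13 and 0.15 in knockout livers. Knockout mouse 3 was the highest of the knockouts for 35 members (89.7%), beside 32.3% of all tested genes and 40.8% of tested genes at or above the 5th percentile of member level. It was also the highest knockout for 9 of the 9 hepatocyte markers. Its TMM factor was 0.92, and on CPM without TMM it was the highest knockout for 25 members (64.1%). On CPM without TMM no share over all tested genes was computed. Wild-type mouse 3 was the highest wild-type for 21 members (53.8%), beside 35.4% of all tested genes and 30.3% of tested genes at or above that level, and for 26 members on CPM without TMM. Ehhadh, Pdk4, Fgf21, Acot1, Acot2, Cyp4a14, Eci2 and Abcd2 were among the 21. Wild-type mouse 3 was also the lowest wild-type for 11 members (28.2%), beside 34.7% of all tested genes. Fabp1, Hadh, Ppara and Cyp4a10 were among the 11. This mouse also had the highest periportal marker deviation; the part of zonal genes or of library scaling in these values was not tested. Knockout mouse 1 was the lowest of the knockouts for 19 members (48.7%), beside 33.3% of all tested genes. Knockout mouse 2 was the lowest for 19 as well, beside 32.0%. Knockout mouse 1 held the lowest value of all mice for Cyp4a10, Cyp4a14, Acaa1b and Fgf21. The same held for Ehhadh, Abcd2, Ucp2, Bdh1, Acadl, Acadm, Acads and Hadha. For Ppara it held the highest. Leaving out knockout mouse 3 moved the median member difference from -0.09 to -0.19, and leaving out knockout mouse 1 moved it to -0.03.

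**Figure D5:**
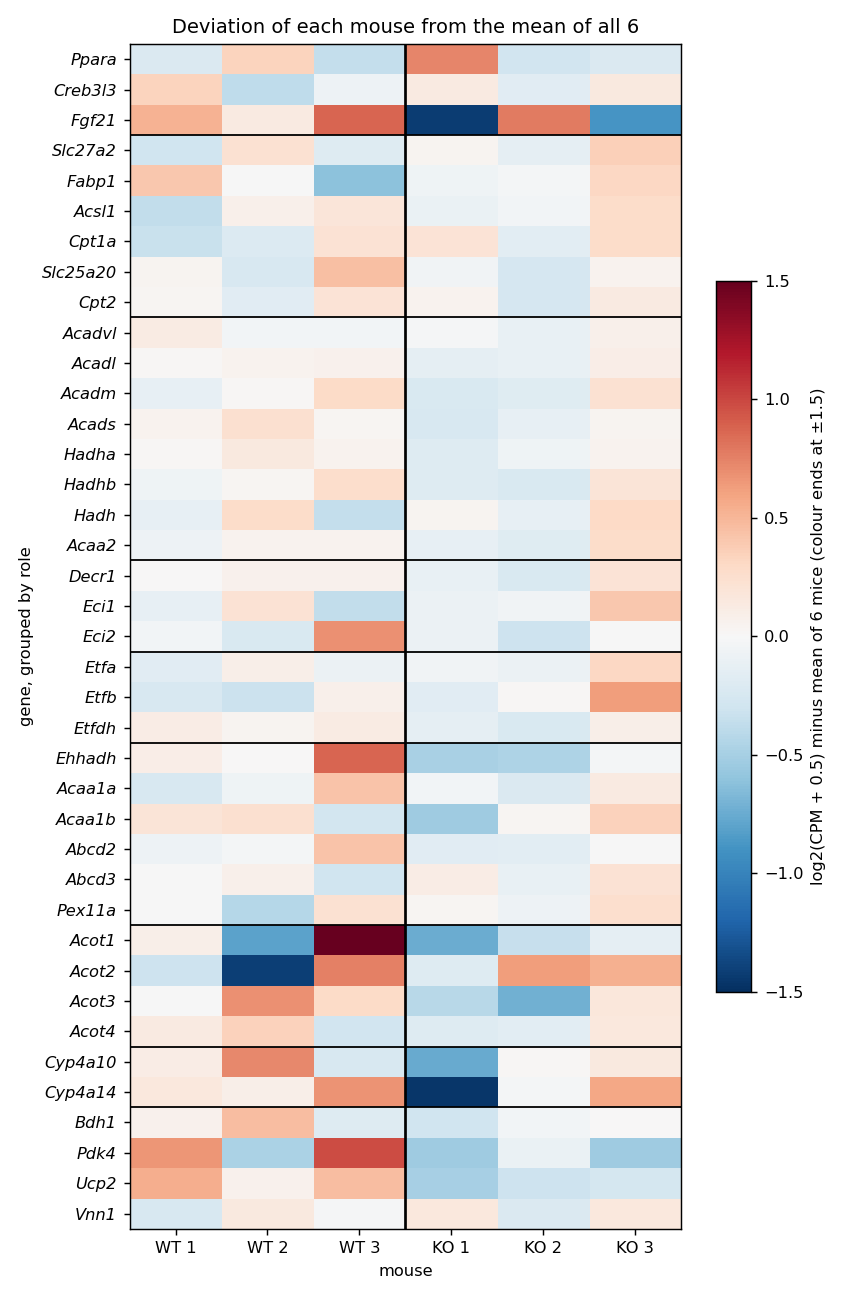
Deviation of each mouse (columns) from the mean of all 6 on the log2(CPM + 0.5) scale, for the 39 genes in role groups (rows, separated by lines); red is higher and blue lower, and colours end at 1.5 either way. Knockout mouse 3 is redder than the other knockouts across most rows, and Acot1, Acot2, Fgf21, Cyp4a14 and Pdk4 carry the strongest colours.

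Other genes of the same pathways gave no called difference either. Of 94 further genes in 4 lists, 91 were tested, none was called by edgeR or DESeq2, and 47 of the 91 were higher. At an unadjusted edgeR p under 0.05 there were 7 (3 lower and 4 higher), which is 7.69% beside 12.8% of all tested genes. The genotypes did not overlap for 5 genes lower in the knockout (5.49%), beside 9.42% of all tested genes. They did not overlap for 5 genes higher in the knockout, where 8.81% of all tested genes had this pattern. Among 18 further genes of mitochondrial oxidation and ketogenesis the median difference was -0.02. Oxct1, which uses ketone bodies and is normally low in hepatocytes, had 5.60, 5.94 and 7.90 CPM in the wild-type mice, against 2.79, 4.56 and 3.09 CPM in the knockout mice (-0.89 ± 0.27, edgeR adjusted p = 0.249), with no overlap. Acad9 and Acot13, next by p, differed by -0.14 and 0.15.

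Of 21 further peroxisomal genes 2 were at an unadjusted edgeR p under 0.05, both higher in the knockout. Nudt7, a peroxisomal coenzyme A diphosphatase, had 35.0, 48.2 and 38.9 CPM in wild-type livers, compared with 57.2, 59.2 and 56.9 CPM in knockout livers (0.51 ± 0.14, edgeR adjusted p = 0.229), with no overlap. Pex16, a peroxisome biogenesis factor, differed by 0.32 ± 0.13 (edgeR adjusted p = 0.346), and Acox3, a branched-chain acyl-CoA oxidase, by -0.23 ± 0.13.

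Of 32 further PPARA targets 29 were tested, with 2 lower and 1 higher at an unadjusted edgeR p under 0.05. Acsl3, a long-chain acyl-CoA synthetase of lipid droplets, differed by 0.48 ± 0.18, Gk, glycerol kinase, by -0.39 ± 0.15, and Pltp, the phospholipid transfer protein, by -0.33 ± 0.14 (edgeR adjusted p = 0.335, 0.359 and 0.39). Pltp overlaps Ctsa, a gene with more counts, and is uncertain for that reason. Of 23 nuclear receptor partners and coregulators, 1 had an unadjusted p under 0.05. Rxrg, a minor hepatic partner of PPARA, had 7.18, 7.38 and 6.22 CPM in the wild-type mice, against 11.4, 9.62 and 11.2 CPM in the knockout mice (0.63 ± 0.17, edgeR adjusted p = 0.226). The knockouts were all above the wild-type mice. Rxrb, another partner, differed by 0.28 ± 0.12 and Esrra, the receptor ERRα that drives many of the same mitochondrial genes, by -0.31 ± 0.16.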

How the data were processed

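Poly(A) RNA of 6 livers, 1 library per mouse, was measured as raw counts of reads per gene, deposited by the authors without normalisation. The submitters' processing notes name the build GRCm38.p6, the aligner HISAT2 (2.0.5), the assembler StringTie (1.3.3b) and the counter featureCounts (1.5.0-p3). Which annotation release, strand option and multi-mapping rule were used is not given in the sources used here. The labels' protocols describe random-hexamer priming and no strand-marking step, so reads of overlapping genes cannot be separated. This bears on Acadvl (with Dvl2), Acaa1a (with Myd88), Acot3 and Acot4 (with 4732463B04Rik) and Ucp2 (with Dnajb13). Their partners held 952, 1596, 398, 398 and 62 counts over all libraries against 21345, 20275, 3160, 12137 and 5184 in the members. Overlap also affects Acaa1b (with Dlec1), Eci2 (with Gm16984) and Etfdh (with 4930579G24Rik). There the partners held 113, 109 and 104 counts against 52976, 11774 and 21854. Partners of other overlapping members, such as Bdh1 and Slc27a2, held at most 19 counts.

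Groups came from the genotype in the labels, and the mouse was the replicate. The edgeR p values set the genotype difference against the spread between these mice, estimated with information shared across genes. Of 54682 rows, 54495 matched GENCODE genes of the same build. A further 37 were kept by Ensembl ID, and 150 without one, holding 0.273% to 0.509% of a library's counts, were left out. Totals ran from 15493009 to 19346623 counts per library; a count of 0 allows up to 3 counts, or 0.150 to 0.206 TMM-scaled CPM, which covers counting error only.

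In R 4.3.3, edgeR 4.0.16 was run with filterByExpr, TMM, the robust quasi-likelihood F test and Benjamini-Hochberg adjustment over 14145 genes at 0.05. The standard error is the size of the log2 difference over the root of F, and 95% intervals use the fit's degrees of freedom. Alternatives were RLE size factors, no filter, CPM of at least 1 in at least 3 libraries, DESeq2 1.42.0, limma 3.58.1 (voom), mouse number as a block and leaving out each mouse. On simulated counts of this comparison (14145 genes, 200 changed, 5 runs), 42.4% of the 2-fold and 83% of the 4-fold changes were called by edgeR, 8.51% of its calls were false, and 95.3% of intervals held the true value. Levels per kilobase divide CPM by the merged exon length. Close copies were measured as shared 50-base windows of annotated transcripts.

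All 39 members are reported. From each of the 4 further pathway lists the 3 genes with the smallest p are named, and any other gene is said to be named after its values were seen. Some single genes of these lists are not reported here. The members and lists were chosen with earlier results of these data known.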

Additional observations from a re-analysis of the deposited data

How the results depend on the processing

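With 3 mice per genotype, single libraries set several values. The number of genes called overall was 2 in the edgeR fit, 6 with no low-count filter, 330 with DESeq2, 0 with limma-voom and 1 with the replicate block. It ran from 0 to 151 when each mouse was left out in turn, with 151 reached without wild-type mouse 2. Members called numbered 0, but 1 with DESeq2 (Ucp2) and 0 to 2 when a mouse was left out (Pdk4 and Ucp2 without wild-type mouse 2, at an edgeR adjusted p of 0.0429 each). Members at an unadjusted p under 0.05 numbered 4, but 3 with no low-count filter and with limma-voom (Acot3, Ehhadh and Ucp2, without Pdk4), 2 with the replicate block (Ehhadh and Ucp2) and 1 to 4 when a mouse was left out, with 1 (Ucp2) reached without knockout mouse 1 and 2 (Ucp2, lower, and Acot2, higher) without wild-type mouse 3. Ucp2 was in this set under each of the settings run. The mouse numbers do not pair the livers: same-numbered mice had correlations of their deviations of -0.0286, -0.0405 and -0.00731, and the block changed no call of a member. No member changed sign under another normalisation, filter, tool or the block. Leaving out 1 mouse changed the sign of 18 small differences, whose log2 fold changes then ran from -0.077 to 0.18 for Acsl1, -0.067 to 0.033 for Acadvl, -0.025 to 0.19 for Vnn1, -0.085 to 0.27 for Creb3l3, -0.15 to 0.081 for Acaa2, -0.29 to 0.14 for Acaa1b, -0.032 to 0.28 for Pex11a, -0.30 to 0.011 for Acot4, -0.13 to 0.37 for Fabp1, -0.33 to 0.014 for Slc25a20, -0.13 to 0.065 for Cpt2, -0.27 to 0.0046 for Acadm, -0.0022 to 0.33 for Hadh, -0.49 to 0.0032 for Eci2, -0.24 to 0.11 for Acaa1a, -0.19 to 0.46 for Ppara, -0.21 to 0.0089 for Decr1 and -0.0067 to 0.21 for Etfa.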
